A study of Mus musculus with 5 samples.

Results

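Of the 17923 genes listed in at least 1 of 5 RNA-seq libraries, 9 were followed here because the thyroid gland needs them. They were taken by gene symbol, from the NCBI gene numbers in the files. They comprised 4 transcription factors of the follicular cell lineage (Nkx2-1, Pax8, Hhex and Foxe1) and 5 follicular genes (Tg, Tshr, Slc5a5, Slc26a4 and Duox2), and all 9 were found. The cells were mouse lines grown from thyroid tumors driven by BrafV600E, labelled as thyroid epithelial cells. The BVE-Ctnnb1wt group (2 libraries) came from line BVE at passage 20, without thyroid-stimulating hormone (TSH) in replicate 1 and with TSH in replicate 2. The BVE-Ctnnb1null group (3 libraries) had BrafV600E together with a deletion of Ctnnb1, the gene of β-catenin. Its replicate 1 was line BVECTN_4 at passage 8 without TSH, replicate 2 was line BVECTN_4A at passage 11 and replicate 3 was line BVECTN_5 at passage 7, and the labels of the last 2 do not mention TSH. The protocol, by contrast, names 4 mU/mL bovine TSH in the medium, with passage numbers near 25 (wt) and 20 (null). The promoter that drives the alleles is not given in the sources used here. Since the wt group was 1 line and each null library another line, genotype, line and passage cannot be told apart, and p-values measure only the spread between these libraries. Each library held between 29360002 and 30713079 estimated counts, so 3 counts equal about 0.1 CPM (counts scaled to library size), and counting intervals cover counting error only.

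Thyroid follicular cells take up iodide from the blood and build thyroid hormone on thyroglobulin, which they store in the lumen of the follicle. NKX2-1, PAX8, HHEX and FOXE1 are the transcription factors whose joint presence marks the thyroid primordium and the mature follicular cell, and NKX2-1 and PAX8 bind regulatory regions of the thyroglobulin and iodide transporter genes. TSH acts through its receptor on these genes, and activation of the MAPK pathway by BRAF V600E is known to lower the expression of iodide-handling genes in thyroid cancer.

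The deleted gene was examined first. Ctnnb1 had FPKM values (fragments scaled to transcript length and library size) of 59.29 and 73.75 for wt replicates 1 and 2, against 124.58, 196.26 and 117.82 for null replicates 1, 2 and 3. In TMM-scaled CPM, which also corrects for library composition, the groups overlapped. The amount of Ctnnb1 RNA was thus not lower in the null libraries, although their labels state a deletion. A value per transcript cannot show which exons are missing, so the labelled deletion was not tested. Groups are named by their labels throughout, and each direction below is for the libraries labelled null.

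Nkx2-1 (NCBI gene 21869), the homeodomain factor of thyroid, lung and ventral forebrain, was the most abundant of the 9 genes on average. Its FPKM was 9.21 and 15.02 for wt replicates 1 and 2, against 9.26, 34.83 and 0.26 for null replicates 1, 2 and 3. The groups overlapped, with null replicate 2 highest of all 5 libraries and null replicate 3, with 18 estimated counts, far below the others. The wt mean was 12.1 ± 4.11 (SD, n = 2) and the null mean 14.8 ± 17.9 (SD, n = 3). Groups were compared with the quasi-likelihood fit of edgeR, whose p-values were adjusted over all tested genes by the Benjamini-Hochberg method. The log2 fold change (null minus wt) of Nkx2-1 was -0.33 ± 1.42 (standard error), with an edgeR adjusted p = 0.917, so its sign was opposite to that of the difference between the mean FPKM values. In limma on log2(FPKM + 0.1) it was -1.28 (limma adjusted p = 0.693). The edgeR value was 0.22 without null replicate 3, -1.95 without null replicate 2, -0.80 without wt replicate 1, -0.12 without null replicate 1 and 0.09 without wt replicate 2. The files list 2 RefSeq transcripts of Nkx2-1, and NM_001146198 held between 90.1% and 98.5% of the gene's counts in the 4 libraries with high levels. The other transcript, NM_009385, took 9.9% in null replicate 2 and between 1.5% and 3.1% in wt replicates 1 and 2 and null replicate 1. These shares are estimates, and the gene's counts were not whole numbers. All of the 18 counts in null replicate 3 were assigned to NM_001146198.

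Pax8 (NCBI gene 18510), the paired domain factor that follicular cells need for thyroglobulin and iodide transporter expression, had another profile. Its FPKM was 0.40 and 0.17 for wt replicates 1 and 2, with 32 and 14 counts, and 18.15, 12.78 and 2.56 for null replicates 1, 2 and 3, with 1406, 971 and 195 counts. The groups did not overlap, and the lowest null library, replicate 3, was also the one with the least Nkx2-1. The wt mean was 0.285 ± 0.163 (SD, n = 2) and the null mean 11.2 ± 7.92 (SD, n = 3). In edgeR the log2 fold change of 4.75 ± 1.09 had an unadjusted p = 0.00367 and did not pass after adjustment (edgeR adjusted p = 0.181). DESeq2 gave an adjusted p = 7.74e-05 at a log2 fold change of 4.68. Over all alternatives the log2 fold change of Pax8 lay between 2.94 and 5.27 and its adjusted p between 7.74e-05 and 0.841. A two-sided exact permutation test of log2(FPKM + 0.1) gave p = 0.1, the smallest that 2 against 3 libraries allow.

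The sequences before the annotated starts of Pax8 and Slc5a5, the gene of the iodide transporter described below, are shown because, of the genes with enough counts for a ratio, these were the ones higher in null replicate 1 than in wt replicate 1. Both come from RefSeq's GRCm38.p6 and run 250 bases up to the start, on the minus strand, at chr2:24475600-24475849 for Pax8 and chr8:70892758-70893007 for Slc5a5. Capitals mark CAAG, the core of sites bound by NKX2-1, on either strand (CTTG on the reverse).
Pax8: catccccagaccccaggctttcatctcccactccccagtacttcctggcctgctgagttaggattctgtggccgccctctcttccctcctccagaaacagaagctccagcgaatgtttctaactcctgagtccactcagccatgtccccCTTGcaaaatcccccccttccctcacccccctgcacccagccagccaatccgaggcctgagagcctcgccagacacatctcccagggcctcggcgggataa
Slc5a5: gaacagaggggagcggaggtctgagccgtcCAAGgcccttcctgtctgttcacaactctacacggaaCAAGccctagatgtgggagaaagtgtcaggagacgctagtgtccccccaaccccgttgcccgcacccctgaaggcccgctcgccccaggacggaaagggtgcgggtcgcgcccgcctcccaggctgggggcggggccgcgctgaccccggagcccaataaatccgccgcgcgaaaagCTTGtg
Pax8 held 1 match, Slc5a5 held 3 and the Nkx2-1 promoter held 6. This short core is common, since 86.6% of all 32851 promoters of this length hold at least 1 match and the median is 2. The letters CTTTGA, part of the consensus bound by the TCF/LEF partners of β-catenin, were searched on both strands and do not overlap with CAAG. They were in neither of these promoters and in 1 of the 6 promoters found for the 9 genes (that of Slc26a4), against 13.8% of all promoters. These matches describe letters and not bound sites.

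Hhex (NCBI gene 15242), a homeodomain factor that maintains the early thyroid bud, was detected in all libraries. Its FPKM was 3.71 and 4.14 for wt replicates 1 and 2, against 1.08, 20.24 and 1.38 for null replicates 1, 2 and 3. Null replicate 2 was the highest library and the other null libraries were the lowest, so the wt libraries lay between them. The log2 fold change of 0.30 ± 1.27 (edgeR adjusted p = 0.913) became -2.33 without null replicate 2. It was 0.80 without null replicate 1, 0.79 without null replicate 3 and 0.05 without wt replicate 1. Foxe1 (NCBI gene 110805), the forkhead factor of thyroid migration, was close to absent. It had 1 count in wt replicate 2 and 3 counts in null replicate 3 and was not listed in the other libraries. All of these are at or under 3 counts, so no fold is given.

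**Figure D1:**
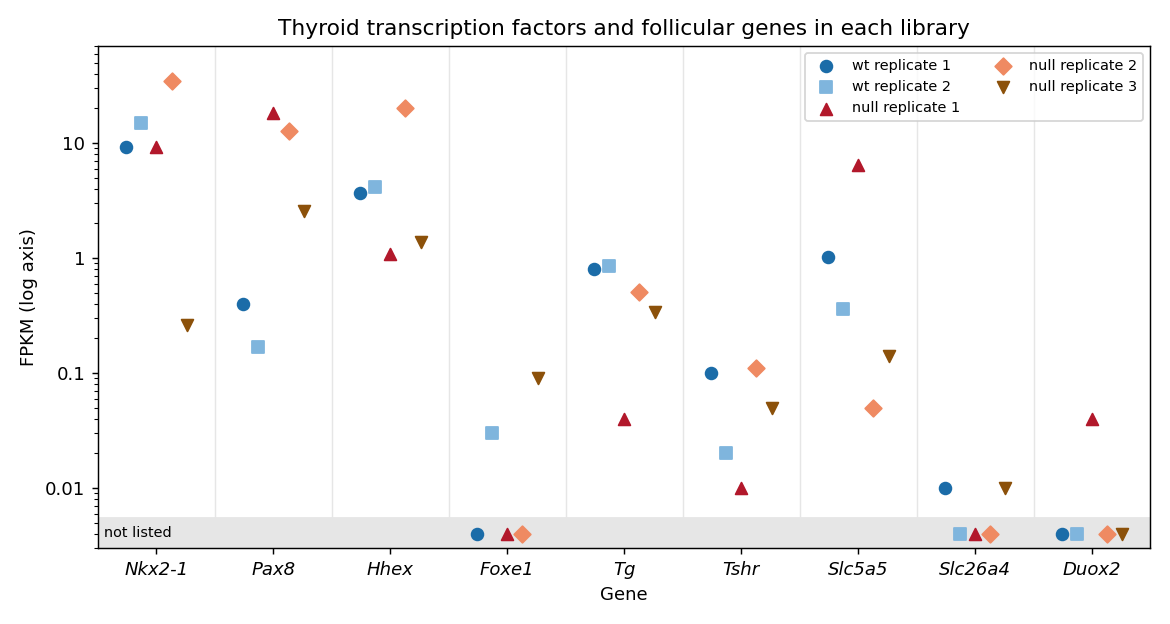
FPKM of each of the 9 genes (log axis) in the 2 BVE-Ctnnb1wt and 3 BVE-Ctnnb1null libraries, 1 point per library, with genes not listed in a library drawn in the grey band. Pax8 is at 0.40 or less in both wt libraries and at 2.56 or more in all null libraries, while Nkx2-1 ranges from 0.26 to 34.83 within the null group.

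Tg (NCBI gene 21819), which encodes the thyroglobulin on which thyroid hormone is made and is among the most abundant transcripts of a normal follicular cell, was low everywhere. Its FPKM was 0.80 and 0.86 for wt replicates 1 and 2, against 0.04, 0.51 and 0.34 for null replicates 1, 2 and 3, or 211, 230, 10, 128 and 86 counts. Every null library was below both wt libraries, and null replicate 1, which had the most Pax8, had the least Tg. The mean was 0.83 ± 0.0424 (SD, n = 2) against 0.297 ± 0.238 (SD, n = 3). The log2 fold change of -2.13 ± 1.00 did not pass (edgeR adjusted p = 0.301). On log2(FPKM + 0.1), the two-sided exact permutation test gave p = 0.2. The log2 fold change was below 0 in all 12 alternatives, from -3.06 to -0.51. Even in wt replicate 2 the FPKM of Tg was above that of 35.3% of listed genes only. The span of Tg contains another gene, Sla, whose FPKM was between 0.01 and 0.19. Tshr (NCBI gene 22095), the receptor through which TSH acts, had 5 and 3 counts for wt replicates 1 and 2, against 1, 14 and 2 counts for null replicates 1, 2 and 3, so at this depth no difference was detectable. Its FPKM did not exceed 0.11 in any library, including wt replicate 2, the library labelled with TSH.

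Slc5a5 (NCBI gene 114479) encodes the sodium/iodide symporter, which brings iodide into the follicular cell. Its FPKM was 1.03 and 0.36 for wt replicates 1 and 2, against 6.48, 0.05 and 0.14 for null replicates 1, 2 and 3, from 94, 33, 576, 4 and 12 counts. Null replicate 1 was the highest library and the other null libraries were the lowest, so the groups overlapped. The log2 fold change was 1.24 ± 1.93 (edgeR adjusted p = 0.751). Without null replicate 1 it was -3.54 (edgeR adjusted p = 0.117), without wt replicate 1 it was 1.95 and without wt replicate 2 it was 0.61. DESeq2 gave a log2 fold change of 1.17 and no p-value for Slc5a5. Slc26a4 (NCBI gene 23985), the gene of pendrin, an anion exchanger of the apical membrane, had 1 count in wt replicate 1 and 1 in null replicate 3 and was not listed elsewhere. Duox2 (NCBI gene 214593), the oxidase that supplies hydrogen peroxide for iodide coupling, had an estimated 5 counts in null replicate 1 and was not listed in the other libraries. Its estimate and those of Nkx2-1, Hhex and Tshr were not whole numbers in every library, so 4 of the 9 genes rest on estimates of that kind. Altogether 3 of the 9 genes had at most 5 counts in every library.

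Across the 9 genes, edgeR called 0 higher and 0 lower at an adjusted p under 0.05, and 0% of the 13252 genes tested were called in each direction. At an unadjusted p under 0.05, Pax8 was higher and none was lower, where the shares of all tested genes were 12.4% higher and 6.07% lower. DESeq2 called 1 of the 8 genes for which it gave a p-value higher (Pax8) and 0 lower, against 8.48% and 3.71% of all genes. In limma on log2(FPKM + 0.1), 0 of 9 were called in each direction, against 0.00841% higher and 0.042% lower among all genes. The FPKM of the groups did not overlap for Pax8 (null higher) and for Tg (null lower), as it did not for 35.8% and 7.21% of the genes tested. The median log2 fold change was 0.30 over the 9 genes, over the 5 that passed the filter on low counts, and over all genes tested. Of the 9, 5 passed the filter on low counts by themselves (Nkx2-1, Pax8, Hhex, Tg and Slc5a5), and the fitted values of the others rest on a few reads.

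**Figure D2:**
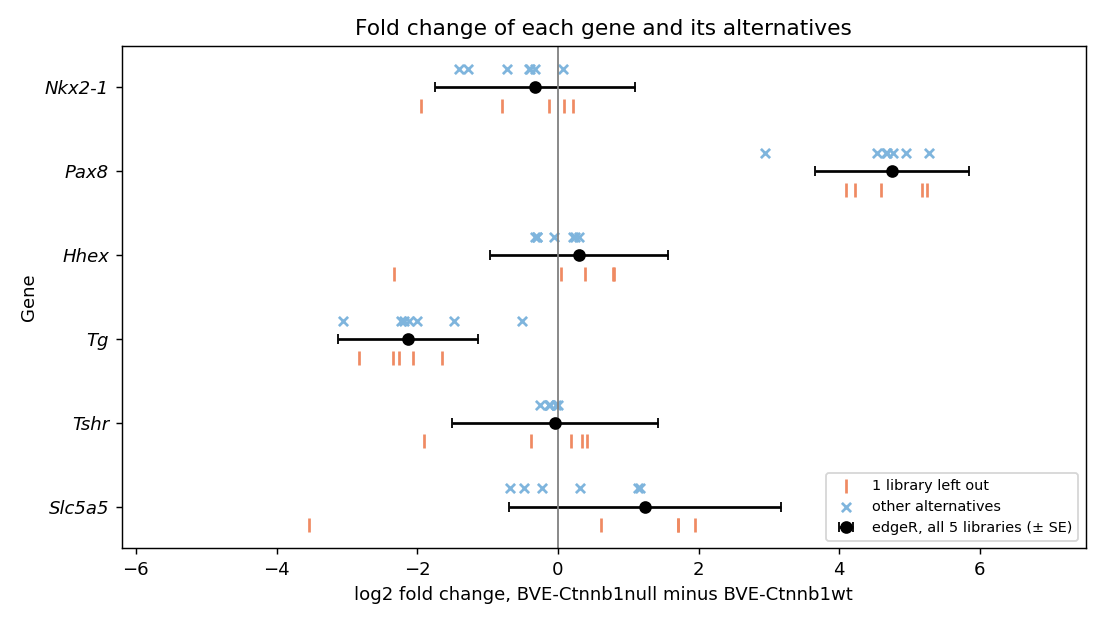
Log2 fold change (BVE-Ctnnb1null minus BVE-Ctnnb1wt, 5 libraries) of the 6 genes with more than 5 counts in some library, with black points and bars for the edgeR value ± standard error, orange ticks for fits without 1 library and blue crosses for the other alternatives. All values of Pax8 lie between 2.94 and 5.27 and all of Tg below 0, while for Nkx2-1, Hhex, Tshr and Slc5a5 leaving out a library moves the value across 0.

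The null libraries differed from each other in which of these genes they contained. In null replicate 1 the order by FPKM was Pax8, Nkx2-1, Slc5a5 and Hhex, all at 1.08 or more. In null replicate 2 it was Nkx2-1, Hhex and Pax8, with Slc5a5 at 0.05. In null replicate 3 only Pax8 and Hhex reached an FPKM of 1. Both wt libraries began with Nkx2-1 and Hhex and had Pax8 below Tg and Slc5a5. On log2(FPKM + 0.1), the range over the 3 null libraries was 6.60 for Nkx2-1, 5.46 for Slc5a5, 4.11 for Hhex and 2.78 for Pax8. Over the 10827 genes with a mean FPKM of at least 1 the median range was 1.38, and 97.6%, 95.5%, 91.8% and 85% of them had a smaller range than these genes, in that order. Between the wt libraries the same quantity was 0.70 for Nkx2-1, 1.30 for Slc5a5, 0.15 for Hhex and 0.89 for Pax8. No test was made of these ranges.

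The genes closest in pattern were found by the root mean square difference of log2(FPKM + 0.1) over the 5 libraries, after each gene was centred on its mean. For Nkx2-1 they were Mycn (0.40), Col4a6 (0.63) and Snord49b (0.76). Mycn, a MYC family transcription factor, had an FPKM of 3.73, 2.71, 2.44, 12.60 and 0.01 in wt replicates 1 and 2 and null replicates 1, 2 and 3. For Pax8 they were Sox13 (0.23), Slc22a23 (0.45) and Ccdc184 (0.51), and Sox13, an SRY-box transcription factor, had 0.29, 0.17, 14.05, 7.64 and 1.92. For Hhex they were Wnt5b (0.23), Uchl1 (0.33) and Cybrd1 (0.38), and Wnt5b, a Wnt ligand, had 2.15, 2.88, 0.83, 10.32 and 1.01. For Slc5a5 they were Gstt2 (0.40), Ube2ql1 (0.46) and Csf2ra (0.58), all highest in null replicate 1. Among Nkx2-1, Pax8 and Hhex, the closest pair was Nkx2-1 and Hhex at 1.67. Foxe1, with a mean FPKM under 1, was not compared. Ranked by closeness among 10814 genes, Hhex came 207 for Nkx2-1, while Nkx2-1 came 5928 for Hhex. Pax8 was far from both, at 3.20 from Nkx2-1 (rank 10174 for Pax8) and 2.81 from Hhex (rank 9346). Slc5a5 was 2.79 from Nkx2-1 and 2.82 from Pax8 (ranks 9805 and 9864 for Slc5a5). With 5 libraries these distances are a description of likeness and nothing more.

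By their labels the wt libraries carried the same line with and without TSH, although the protocol names TSH in the medium. There was 1 library each, so their differences have no replicate check and a ratio compares the libraries only. In CPM, Nkx2-1 was 1.64 times as high with TSH (95% counting interval 1.48 to 1.81, from an exact binomial interval). Slc5a5 was 0.348 times as high (0.227 to 0.522) and Pax8 0.434 times as high (0.214 to 0.836), the latter from 14 and 32 counts. Hhex (1.12, 0.921 to 1.36) and Tg (1.08, 0.892 to 1.31) had intervals that include 1. Among all genes with at least 20 counts in these libraries together, 5.01% were at least 2-fold higher with TSH and 11.6% at least 2-fold lower, the side on which Pax8 and Slc5a5 lie. Null replicate 1 and wt replicate 1 were both labelled without TSH. Between these single libraries Pax8 was 44.7 times as high in null replicate 1 (31.5 to 65.6) and Slc5a5 6.23 times (5 to 7.83). Nkx2-1 did not differ beyond the counting interval (1.00, 0.897 to 1.12). Hhex was 0.288 times as high (0.211 to 0.389) and Tg 0.0482 times (0.0228 to 0.0904). These ratios use total counts, and the ratios near 1 move with the scaling, so the intervals that include 1 do so for total counts only. In TMM-scaled CPM, Nkx2-1 was at 25.1, 47.1 and 19.6 in wt replicate 1, wt replicate 2 and null replicate 1, Hhex at 7.85 and 10.1 in wt replicates 1 and 2, and Tg at 8.24 and 10.2.

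**Figure D3:**
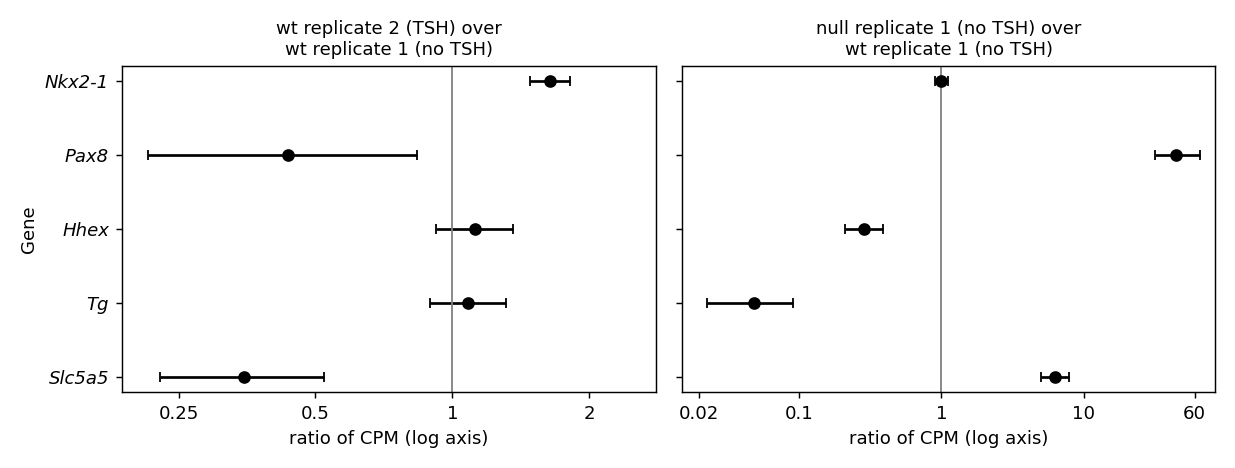
Ratio of CPM (log axis) for the 5 genes with enough counts, with 95% counting intervals, for wt replicate 2 (TSH) over wt replicate 1 (no TSH) on the left and null replicate 1 over wt replicate 1, both labelled without TSH, on the right. In the library labelled with TSH, Nkx2-1 lies above 1 and Slc5a5 and Pax8 below. In null replicate 1, Pax8 and Slc5a5 lie above 1, Nkx2-1 at 1.00 and Hhex and Tg below. The ratios use total counts, and those near 1 move with the scaling.

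Other genes of thyroid hormone production were examined in 3 lists of 26 genes together, of which 25 were listed in some library. Of these, edgeR called 0 higher and 0 lower at an adjusted p under 0.05, and 2 higher and 1 lower at an unadjusted p under 0.05, where 12.4% and 6.07% of all tested genes were. DESeq2, which gave an adjusted p for 23 of them, called 3 higher (Glis3, Lrp2 and Tbx1) and 1 lower (Ctsl), beside 8.48% and 3.71% of all genes, and limma on log2(FPKM + 0.1) called 0 of 11. Of the genes called higher, Tbx1 was detected almost entirely in null replicate 3 and Lrp2 in the null libraries alone. Glis3 was at 0.11 and 0.12 FPKM in wt replicates 1 and 2, against 1.01, 0.45 and 2.35 in null replicates 1, 2 and 3. Its edgeR adjusted p was 0.23 and its DESeq2 adjusted p 0.0447. The median log2 fold change in edgeR was 1.03 over the 18 genes that passed the filter on low counts and 1.73 over all 25, beside 0.30 over all genes tested. The value of 1.73 is the fitted value of Iyd, which has 1 count in 1 library, and folds of genes detected in null libraries alone depend on the fit, so neither median is read as a change of the list.
Some genes of hormone synthesis were as scarce as Slc26a4 and Duox2. Duoxa2, the maturation factor of DUOX2, and Iyd, the iodotyrosine deiodinase, had at most 1 count in any library. Ano1, a calcium-activated chloride channel through which iodide can leave the cell, had an FPKM of 3.83 and 5.19 for wt replicates 1 and 2, against 64.12, 22.35 and 5.49 in the null libraries (log2 fold change 2.22 ± 1.04, edgeR adjusted p = 0.301). Like Pax8, it was highest in null replicate 1, but the groups overlapped in TMM-scaled CPM. Kcnq1, a potassium channel subunit, had 0.48 and 0.30 in the wt, against 13.27, 0.04 and 2.68 in the null libraries.
Among genes of hormone release and conversion, Lrp2, the endocytic receptor megalin, had 0 counts in both wt libraries and 10, 37 and 106 counts for null replicates 1, 2 and 3 (edgeR adjusted p = 0.192, DESeq2 adjusted p = 0.0102). Of the lysosomal proteases that digest thyroglobulin, Ctsd, Ctsb and Ctsl were abundant in all libraries, as in many cell types. Ctsd was at 365.79 and 370.92 FPKM in the wt, against 1753.55, 484.55 and 553.68 in the null libraries. In TMM-scaled CPM the groups overlapped for Ctsd, with 868 and 1010 in the wt against 3210, 788 and 906 in the null libraries. Ctsb lay between 51.11 and 177.53 FPKM and also overlapped in TMM-scaled CPM, and Ctsl was at 821.28 and 798.06 in the wt against 344.51, 500.62 and 655.60 in the null libraries. Ctsk reached 12.73 in null replicate 3 and was at 0.28 or less elsewhere. Slc16a10, a transporter of aromatic amino acids and thyroid hormone, lay between 0.43 and 2.38.
Among regulators, Wwtr1 (TAZ, a coactivator of PAX8 and NKX2-1) was at 11.81 and 11.75 FPKM in the wt, against 16.12, 47.29 and 38.01 in the null libraries, and Sox9 had 4.42 and 4.30 against 20.28, 17.69 and 4.87. By FPKM both were higher in every null library, in TMM-scaled CPM the groups of both overlapped, and neither passed (edgeR adjusted p = 0.391 and 0.405). Foxa2, a forkhead factor of endoderm, was at 23.37 in null replicate 1 and between 0.75 and 4.59 in the other libraries. Cdh16, a cadherin of thyroid and kidney epithelium, had 576 counts in null replicate 1 and at most 4 in any other library. Thra, a thyroid hormone receptor, lay between 19.18 and 79.09 with overlapping groups. Tbx1, a pharyngeal T-box factor, reached 6.43 in null replicate 3 and was at 0.02 or not listed elsewhere.

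The libraries also differed in markers of epithelial and other cell types. In bulk RNA, fewer cells of a type and less RNA per cell cannot be told apart. All 10 epithelial markers were listed in 4 of the 5 libraries, with keratins as the most abundant (Krt7, Krt18, Krt8 and Krt19). Null replicate 1 had the highest summed FPKM of this list, 14200, against 1110 and 1790 for the wt libraries and 706 and 1470 for null replicates 2 and 3. That library, with the most Pax8, Slc5a5 and Cdh16, had an FPKM of 152.05 for Epcam and 135.74 for Cdh1. In wt replicates 1 and 2, Epcam was lower, at 5.04 and 4.61, as was Cdh1, at 1.94 and 1.62. In null replicate 2, which had the most Nkx2-1 and Hhex, Epcam and Cdh1 were at 0 counts and Krt8 and Krt18 at an FPKM of 230.48 and 346.31. Cldn3, Cldn4 and Cldn7, claudins of tight junctions, were at 0.14, 0.19 and 0.03 there and Esrp1, an epithelial splicing factor, at 0.01, so the 6 epithelial markers other than keratins were at or near 0 in that library. Pax8 was nonetheless at 12.78. Fibroblast markers summed to an FPKM of 290 and 255 for wt replicates 1 and 2, against 1.70, 148 and 1410 for null replicates 1, 2 and 3, with Col1a1 as the most abundant gene. Null replicate 3, with the least Nkx2-1, had an FPKM of 101.56 for Postn, 88.47 for Thy1 and 84.66 for Dcn, each at 0.24 or less in every other library. Epcam (59.60) and Cdh1 (20.92) were present in null replicate 3 as well. The part of these markers in the levels of the thyroid genes was not tested.
Parafollicular C cells, the calcitonin-producing cells of the thyroid, were represented by a list whose genes did not go one way. Calca, the calcitonin gene, was at an FPKM of 0.73 and 0.56 for wt replicates 1 and 2 and at 0.37, 0.29 and 0.43 for null replicates 1, 2 and 3. Its relative Calcb was at 0.28 and 0.58 in the wt, against 3.78, 1.33 and 1.22 in the null libraries. Ret, a receptor tyrosine kinase, was at 1.07 and 0.71 in null replicates 1 and 3 and at 0.03 or less elsewhere. Syp was at 2.07 and 1.57 in the wt libraries against 0.12 or less in the null libraries. None of these passed in edgeR. Syp, a synaptic vesicle protein, was lower by DESeq2 (adjusted p = 6.68e-07), with an edgeR adjusted p = 0.18. The parathyroid genes Pth and Gcm2 were not listed and Casr had 2 counts in null replicate 1. Endothelial markers summed to an FPKM of 0.75 or less, with Kdr as the most abundant. Of the immune markers, Ptprc, Cd3e and Adgre1 were not listed in any library, while Cd68, a lysosomal protein of macrophages and other cells, had an FPKM of 1.00 to 59.81 and Cd74 of 0.64 to 17.75. Set against the label of thyroid epithelial cells, every library had keratins and at least 2 of Nkx2-1, Pax8 and Hhex at an FPKM of 1 or more. In null replicate 2 the other epithelial markers were at or near 0, and Iyd, Duoxa2, Foxe1 and Slc26a4 were at or near 0 in all 5 libraries.

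**Figure D4:**
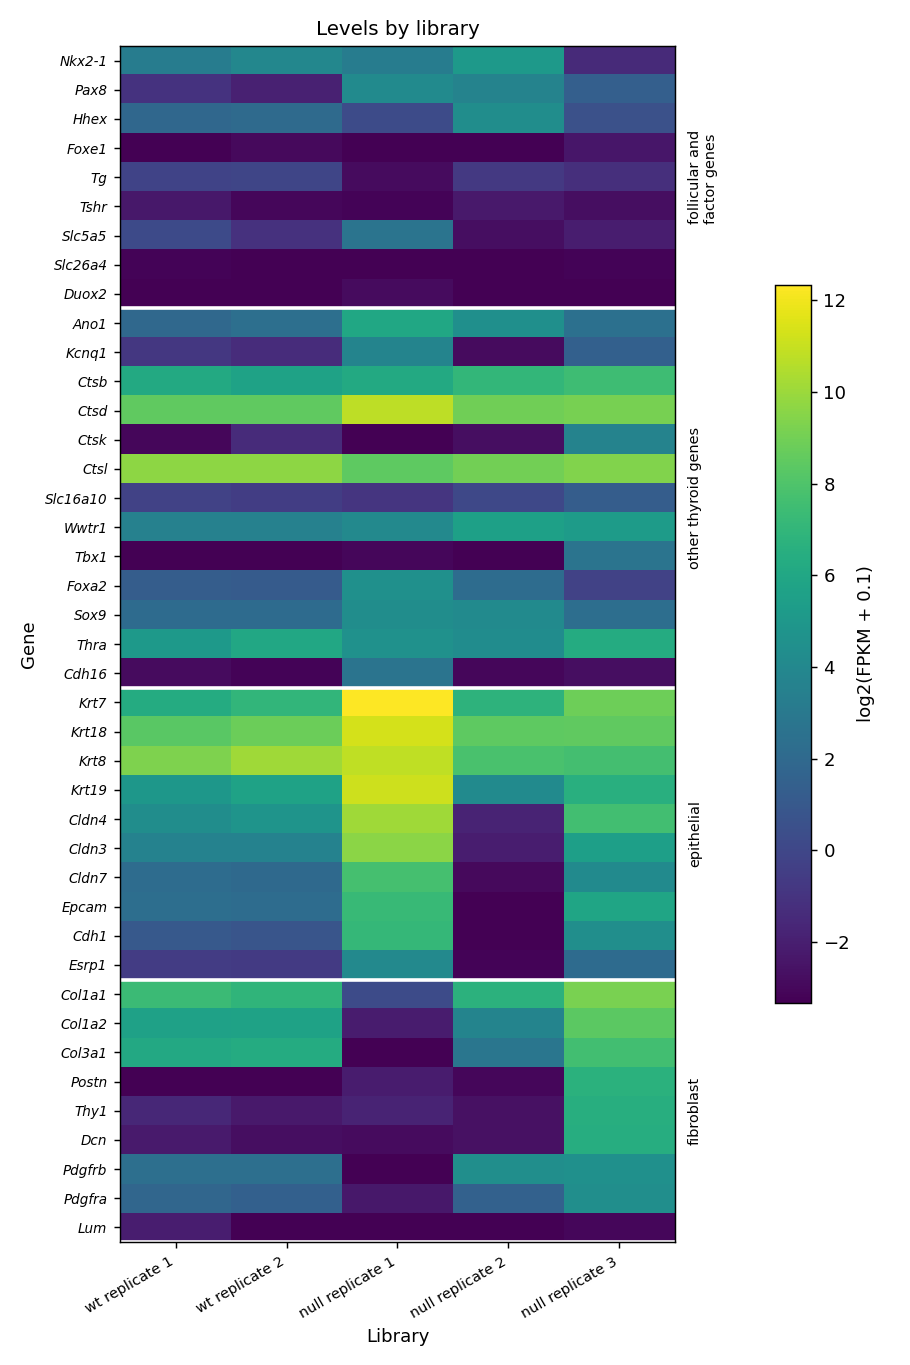
Level of each gene as log2(FPKM + 0.1) (color) in the 5 libraries, for the 9 thyroid genes, other thyroid genes with a mean FPKM of at least 1, and epithelial and fibroblast markers. Null replicate 1 has the highest levels of epithelial markers with Pax8 and Slc5a5, null replicate 2 has Epcam and Cdh1 at 0 and has the most Nkx2-1 and Hhex, and null replicate 3 has the most Postn, Thy1 and Dcn and the least Nkx2-1.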

How the data were processed

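TruSeq RNA libraries of 2 BVE-Ctnnb1wt and 3 BVE-Ctnnb1null cell cultures were sequenced on an Illumina HiSeq. The aligner, counting program, build and annotation are not given in the sources used here. For each RefSeq transcript the authors deposited an estimated count and an FPKM, listed from 0.01 after rounding, and replicates were not pooled. Both were summed per gene, and estimated counts were rounded. Symbols came from RefSeq's GRCm38.p6 table (17866 of 17923 genes matched).

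Libraries were compared with edgeR 4.0.16 in R 4.3.3 (TMM, glmQLFit, glmQLFTest) over 13252 genes. These were the 13240 that passed filterByExpr and 12 genes kept although they were under that filter, thyroid genes of the lists among them. Adjustment was by Benjamini-Hochberg over all genes, with a threshold of 0.05. The standard error is the log2 fold change divided by the root of F. Alternatives were DESeq2 1.42.0, limma 3.58.1 on log2 FPKM with 0.1, 0.01 or 1 added (genes with FPKM of at least 0.5 in 2 libraries, and the 9 genes), 2 other filters, leaving out each library, and a replicate block. The fits were tested on simulated data. Other values were computed in Python 3.11.15 with pandas 2.3.3 and scipy 1.17.1.

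Named were the 9 genes, listed thyroid genes with a mean FPKM of at least 1 or called by a test, marker genes, and the 3 nearest patterns among 10814 genes. Others were named after their values were seen, among them Iyd, Duoxa2, Ret, Syp and Pth. The genes and lists were chosen with earlier results of these data known. A few genes of these lists are not reported here.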

Additional observations from a re-analysis of the deposited data

How the results depend on the processing

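For the 6 genes with more than 5 counts in some library, 53 of 70 values under the alternatives kept their direction and side of the threshold, 1 kept its direction but had no adjusted p (Slc5a5 with DESeq2), 15 changed direction and 1 passed the threshold (Pax8 with DESeq2). Pax8 and Tg kept their direction in all 12 alternatives. None of the values that changed direction passed the threshold in either analysis, and the causes were not tested. Genes called over the whole table moved from 0 higher and 0 lower to 1114 and 487 with DESeq2. In limma 1 gene was called higher at each pseudocount, with 5 lower at 0.1, 3 lower at 0.01 and 7 lower at 1. Without the filter on low counts 4 were called lower, and with a floor of 10 counts per library 1 was. DESeq2 called 1 of the 9 genes higher. Leaving out any library gave 0 calls. Over 11800 genes tested in all 3 ways, the median log2 fold change of all genes was 0.21 in edgeR, 0.13 in DESeq2 and 0.61 on log2(FPKM + 0.1).

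The median of the 9 genes, 0.30, was -0.03, -0.17 and 0.00 in limma with 0.1, 0.01 and 1 added. It was -0.01 over the 4 of them that reach 10 counts throughout, and between -0.47 and 0.39 when a library was left out. In limma with 0.1, 0.01 and 1 added Hhex was at -0.29, -0.33 and -0.06, Nkx2-1 at -1.28, -1.41 and -0.73, and Slc5a5 at -0.22, -0.68 and 0.32. With each library left out, values lay between -1.95 and 0.22 for Nkx2-1, -2.33 and 0.80 for Hhex, -1.90 and 0.41 for Tshr and -3.54 and 1.95 for Slc5a5. Where that left 1 wt library, it was assumed to vary like the null libraries.

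The titles number the libraries within each group. By the labels the wt and null libraries were different lines, and nothing states that equal numbers were paired in another way. Deviations from the group means correlated at -0.111 between wt and null replicate 1 (over genes, which are not independent). The 2 wt libraries deviate in mirror image, so wt replicate 2 gave 0.111 with the same null library. This correlation therefore cannot check a pairing. With the replicate number as a block, edgeR called 0 genes higher and 0 lower, the median of the 9 genes was -0.29, and Nkx2-1 was at 0.07, Hhex at -0.29 and Slc5a5 at -0.48. Only the null group has a replicate 3, so null replicate 3 adds nothing to the contrast of this fit. With so few libraries left, the absence of calls says little. The largest fold changes of Pax8 (5.27) and Tg (-3.06) among the alternatives came from this fit. The biological coefficient of variation was 0.695. Foxe1, Slc26a4, Duox2 and Tshr had 14 counts or fewer in each library, and single libraries were as low as 14 counts for Pax8, 10 for Tg and 18 for Nkx2-1.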
